A study of Mus musculus with 2 samples.

Results

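The 339 contact domains called in replicate 2 of a Hi-C study of HPC5 cells are described here by the genes they hold, the genes their boundaries run through and the loops that join their corners. The members are all entries of the domain list of replicate 2, out of 342 domains in the whole series. The other 3 are those of replicate 1. The members were selected on the contacts measured in that sample, through the authors' own calls, which count every domain in their list. HPC5 is a line of mouse haematopoietic progenitors from marrow, and both samples carried wild-type Etv6 (Etv6+/+). No mutant or treated sample belongs to the map, so there is 1 group of 2 samples, and the labels do not say whether these came from separate cultures. In Hi-C, DNA ends that are near each other in fixed nuclei are ligated and sequenced as pairs. The deposited lists give no contact totals, so the depth behind each domain is unknown.

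Contact domains are stretches of chromosome whose DNA meets itself more often than it meets the DNA beside it. In mammalian cells the cohesin ring is thought to extrude chromatin until it meets CTCF, which leaves loops between convergent CTCF sites, and a loop that joins the start and the end of a domain appears as a bright corner in the contact map. Genes and their enhancers often share a domain, and the loss of a boundary can let an enhancer reach a gene outside it.

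A domain was said to have a corner loop when the midpoints of both anchors of a loop in the medium list of replicate 2 lay within 25 kb of its start and of its end. By this rule 158 of 339 domains, or 46.6% (95% Wilson interval 41.4 to 51.9%), had one and 181 did not. The split rests on the loops of replicate 2 and is a description. The intervals here cover counting error only and treat domains as independent. Domains of 1 library are not replicates, so no difference between the 2 classes was tested.

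Sequences come first from places where a domain holds no protein-coding gene or ends at a gene start. A domain of 305 kb on the X chromosome (mm10, chrX:18875001-19180000) overlapped no protein-coding gene. It held the microRNA genes Mir221 and Mir222, and its 2 corner loops both had an anchor exactly 25 kb from the end, the limit of the rule. The main mature products of these genes share a seed, the bases by which a microRNA pairs with its targets. A domain of 75 kb (chr2:38795001-38870000) lay wholly within Nr6a1, a nuclear receptor gene, and held Mir181a-2 and Mir181b-2, whose main products also share a seed. The seed (bases 2 to 8) is in capitals, and the sequences are from RefSeq's annotation of GRCm38.p6 (mm10).
mmu-miR-221-3p: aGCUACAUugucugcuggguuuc
mmu-miR-222-3p: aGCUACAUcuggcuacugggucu
mmu-miR-181a-5p: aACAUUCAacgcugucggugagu
mmu-miR-181b-5p: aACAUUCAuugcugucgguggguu
The seed was GCUACAU in the first pair and ACAUUCA in the second.

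Next come the 250 bases before the start of 3 genes that start within 5 kb of a boundary, from the RefSeq promoter table, 5′ to 3′ on the gene's strand. Tnfaip3, which encodes an inhibitor of NF-kB signalling, has 2 start sites. Its outermost start lies 410 bases inside a domain of 75 kb and the other 3037 bases outside, and both read out of the domain (outermost shown, chr10:19015411-19015660, minus strand). It is shown because the domain lies upstream of the gene and overlaps no other complete protein-coding gene. Bcl2l14, a Bcl2-family gene, starts 1329 bases beyond the end of the Etv6 domain and reads away from it (chr6:134396079-134396328, plus strand). Kcnj2, a potassium channel gene, starts 1164 bases inside a domain and reads into it (chr11:111065914-111066163, plus strand).
Tnfaip3: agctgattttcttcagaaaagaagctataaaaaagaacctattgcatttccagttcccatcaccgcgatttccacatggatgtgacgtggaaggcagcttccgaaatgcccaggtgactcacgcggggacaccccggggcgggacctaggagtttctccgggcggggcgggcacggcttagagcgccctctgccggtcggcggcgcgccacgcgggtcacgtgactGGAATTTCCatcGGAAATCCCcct
Bcl2l14: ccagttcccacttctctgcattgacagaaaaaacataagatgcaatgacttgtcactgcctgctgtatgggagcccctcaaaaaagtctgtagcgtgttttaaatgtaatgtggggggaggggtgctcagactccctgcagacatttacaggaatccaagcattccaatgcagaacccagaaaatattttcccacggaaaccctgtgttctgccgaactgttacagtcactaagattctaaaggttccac
Kcnj2: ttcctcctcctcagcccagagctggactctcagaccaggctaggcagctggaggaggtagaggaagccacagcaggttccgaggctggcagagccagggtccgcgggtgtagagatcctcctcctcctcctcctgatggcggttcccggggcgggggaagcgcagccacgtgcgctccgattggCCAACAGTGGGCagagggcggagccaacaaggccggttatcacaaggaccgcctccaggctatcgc
Capitals in Kcnj2 mark a match to a core of the CTCF motif, searched on both strands. Of 112 genes with a start within 5 kb of a boundary, 3 held a match in the 250 bases before a start (2.68%, 0.915 to 7.58%), against 407 of 17274 genes in the table (2.36%). The share at boundaries was thus near that of all promoters. Capitals in Tnfaip3 mark 2 matches to GGAANTNCC, a short form of the NF-kB site, which was looked for after the sequence had been seen. These letters occur before 845 of 17274 genes (4.89%), on either strand. The CTCF core had no exact match in the other promoters shown. The Tnfaip3 promoter, read on the other strand, holds a string that departs from the searched core at a single fixed letter (G for A). The lack of a match there thus rests on the letters chosen and does not show that a CTCF-like site is absent. A match is a string of letters and not a bound site, and boundary sequence away from gene starts was not used here.

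**Figure D1:**
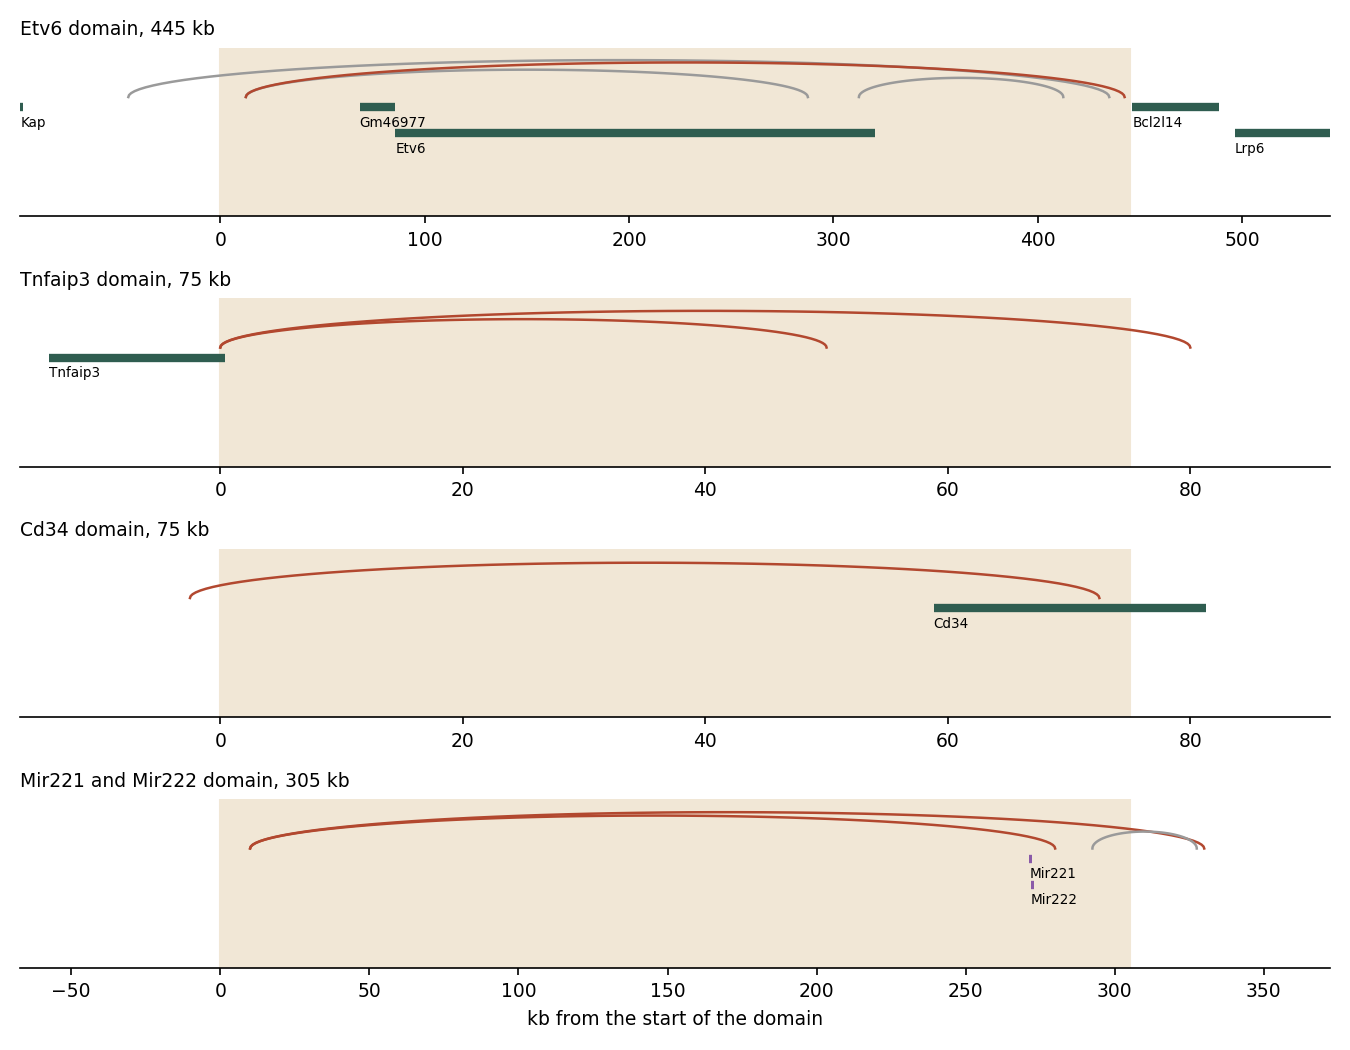
Maps of 4 domains (shaded, from 0 kb to their length on the x axis, in kb from the domain start) with protein-coding genes in green, microRNA genes in purple and replicate 2 loops as arcs, red where they join both corners under the 25 kb rule and grey elsewhere. Etv6 sits wholly inside its domain, Tnfaip3 lies almost entirely outside and Cd34 is cut at the end.

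The domains fell into 2 length classes. There were 30 short domains of 60 to 110 kb (median 75 kb) and 309 long ones of 305 to 950 kb (median 380 kb), with none between. The quartiles over all domains were 320, 365 and 460 kb. Together they covered 127 Mb, or 4.94% of the 2570 Mb between the first and last gene of the 20 chromosomes. Chromosome 10 had the most for its length, with 33 domains or 2.59 per 10 Mb, and the X chromosome the fewest, with 7 domains or 0.418 per 10 Mb. In 8 places 1 domain lay inside another, as the domain of Phlda1 lay inside that of Nap1l1 and Phlda1 on chromosome 10.

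Of the short domains 24 of 30 had a corner loop (80%, 62.7 to 90.5%), and of the long domains 134 of 309 had one (43.4%, 38.0 to 48.9%). A limit of 25 kb at each corner is loose for a domain of 60 to 110 kb and lets in loops of quite different span. With anchors within 10 kb, an alternative chosen after seeing the data, the counts were 16 of 30 short domains (53.3%) and 55 of 309 long ones (17.8%). Domains with a corner loop had a median length of 355 kb (quartiles 320 and 449 kb), and domains without one a median of 380 kb (quartiles 330 and 460 kb). Their length ranges overlapped almost entirely, from 60 to 915 kb with a corner loop and from 60 to 950 kb without. Among long domains alone the medians were 372.5 kb with a corner loop and 385 kb without.

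The corner loops numbered 166, or 2.90% of the 5729 loops in the medium list, and 8 domains had 2 of them. They spanned a median of 340 kb, against 150 kb over all loops, a difference that the rule sets, since a corner loop must match the length of its domain. Their anchors were 5, 10 and 25 kb wide in 22.3, 53.6 and 24.1% of cases, against 17.2, 41.3 and 41.5% over all loops. The distance from an anchor midpoint to its corner had a median of 7.5 kb, and 217 of 332 anchors lay within 10 kb. At 4 domains the nearest loop met both corners exactly, among them the domain of Bhlhe40 on chromosome 6, which encodes a stress-responsive repressor, and that of the kinase gene Sgk1 on chromosome 10. Just inside the limit, 11 domains had their nearest loop 25 kb from the farther corner. Just outside it, 9 domains had theirs at 27.5 kb, including the domain of Gata2 on chromosome 6, which encodes a transcription factor of blood stem cells.

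Domains without a corner loop were seldom free of loop anchors at their ends. Of the 181, 40 had an anchor within 25 kb of each corner but no single loop that joined them, 106 had an anchor at 1 corner, and 35 had none at either. For 56 of them (30.9%) the nearest loop missed by no more than 50 kb.

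Replicate 1, a library that the rule did not use, gave the same order. Its medium list has 1276 loops, and 65 of the 339 domains, or 19.2%, had a corner loop in it. Among domains with a corner loop in replicate 2 these were 61 of 158 (38.6%, 31.4 to 46.4%). Among domains without one they were 4 of 181 (2.21%, 0.863 to 5.54%), a difference that was not tested. Among long domains the counts were 54 of 134 with and 4 of 175 without. The 4 exceptions were the domains of Zfp36l1, Mgll, Gas2 and Cd200r1, named here after their values were seen. Both libraries came from the same cell line, and replicate 1 listed fewer loops, so an absent loop there may only be uncalled.

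**Figure D2:**
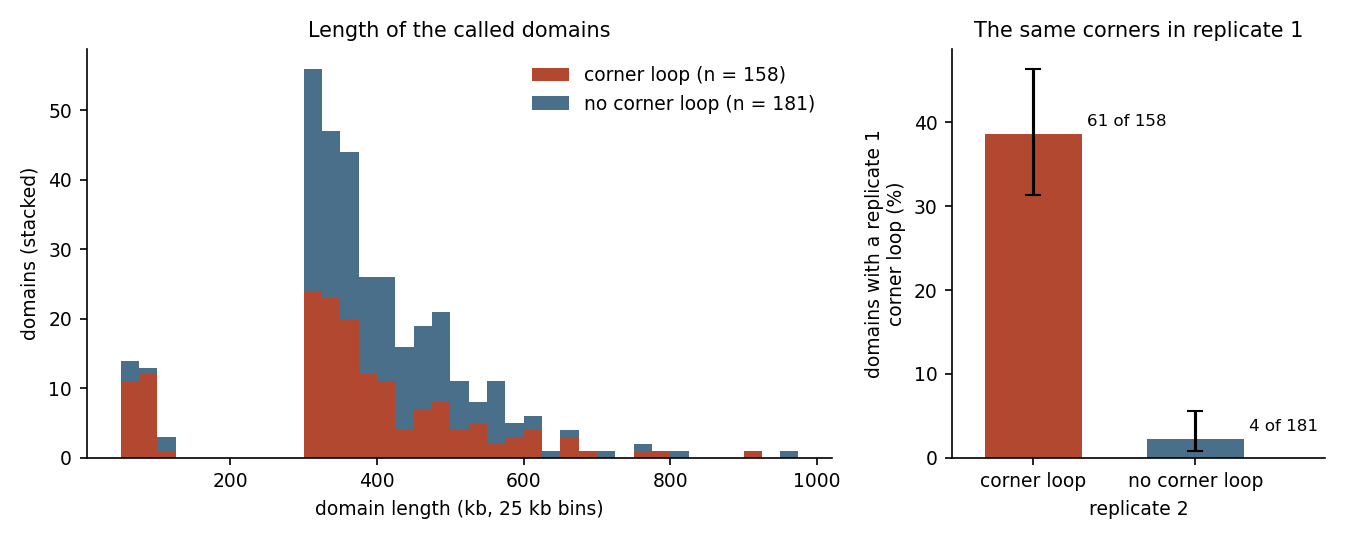
Left, number of replicate 2 domains by length in bins of 25 kb, stacked by class (158 with a corner loop, 181 without). Right, percent of each class with a corner loop in replicate 1, with 95% Wilson intervals, 61 of 158 and 4 of 181.

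Few domains were called in both libraries. Replicate 1 has 3, and each has a counterpart in replicate 2 with the same start and an end 5 or 10 kb away. The first (chr2:13280001-13595000, 315 kb) held Vim, the gene of the intermediate filament vimentin, and Trdmt1, an RNA methyltransferase gene, and cut Cubn, a receptor gene. The second (chr2:78955001-79275000, 320 kb) held no protein-coding gene, and its end cut Itga4, the gene of integrin alpha 4, by which blood progenitors adhere to marrow stroma. The third (chr16:44725001-45155000, 430 kb) held the receptor genes Cd200r1, Cd200r2, Cd200r3 and Cd200r4 with Gtpbp8 and Ccdc80, and cut Nepro and Slc35a5. In replicate 1 it ended 5 kb further on, so that Slc35a5 fell inside and Atg3, an autophagy gene, was cut.

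Of 21521 protein-coding genes, 856 (3.98%) lay wholly inside a domain. The median domain held 2 genes (quartiles 1 and 3.5), and 94 domains (27.7%, 23.2 to 32.7%) held exactly 1. These single genes were of many kinds, which were not counted. Some encode regulators of blood cells, such as Myb, Ikzf2, Prdm1, Id2 and Hes1, and others do not, such as Pax2, Kcnj2 and Amelx. All were named after their values were seen. Counted over all kinds, 2415 of 49209 RefSeq genes lay inside. Among them were 73 of 1228 microRNA genes, spread over 60 domains. The domains covered 4.94% of the length between the first and last genes.

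Domains with a corner loop held fewer complete protein-coding genes than domains without one. The share of their length within protein-coding genes, cut genes included, differed less, with medians of 52.9% with a corner loop and 57.2% without. The median number of complete genes was 1 (quartiles 0.25 and 2) with a corner loop and 2 (quartiles 1 and 4) without. Per Mb of domain there were 4.38 genes with a corner loop and 8.48 without, a ratio of 0.517, where a gene in 2 nested domains counts in each. Over the genome there were 8.38 per Mb. The largest number in a domain was 11 with a corner loop and 28 without.

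The classes differed at both ends of the distribution. Domains with exactly 1 gene were 57 of 158 (36.1%, 29.0 to 43.8%) with a corner loop and 37 of 181 (20.4%, 15.2 to 26.9%) without. Domains with 5 or more genes were 8 of 158 (5.06%, 2.59 to 9.67%) with a corner loop and 44 of 181 (24.3%, 18.6 to 31.1%) without. These intervals treat domains as independent, and neither difference was tested.

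The density was lower with a corner loop in every length class of the long domains. In domains of 305 to 350 kb there were 4.03 genes per Mb with a corner loop and 11.8 without, and in those of 355 to 400 kb there were 7.13 and 8.26. In domains of 405 to 500 kb there were 3.50 with a corner loop and 7.70 without, and in those of 505 to 950 kb 2.91 and 5.99. By chromosome it was lower with a corner loop on 18 of 20 chromosomes, the exceptions being 12 and 15. Short domains ran the other way, with 8.96 genes per Mb in 24 domains with a corner loop and 4.08 in 6 without, which rests on 16 genes and 2 genes. Other kinds of gene varied. Long noncoding RNA genes numbered 7.93 per Mb with a corner loop and 6.92 without, and pseudogenes 2.95 with and 3.79 without. Over all RefSeq genes there were 16.6 per Mb with a corner loop and 20.8 without, a ratio of 0.799, closer to 1 than the ratio for protein-coding genes.

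The neighbourhood of the domains did not differ in the same way. Each domain was set beside the windows of its own length on its left and right. Domains with a corner loop had 4.38 genes per Mb and their flanks 8.51. Domains without one had 8.44 genes per Mb and their flanks 9.14. The flanks of the 2 classes were thus close to each other, while the domains were not. A count of gene midpoints, which does not penalise long genes, gave 5.97 in domains with a corner loop against 9.66 in their flanks, and 9.98 in domains without against 10.1 in theirs.

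**Figure D3:**
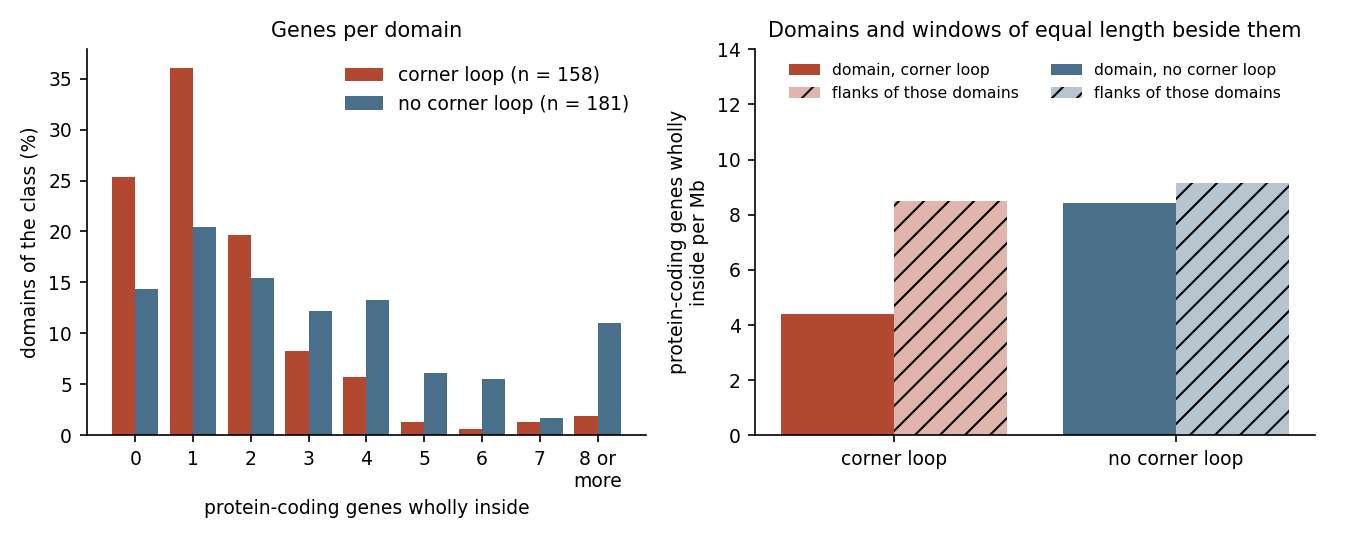
Left, percent of domains in each class by the number of protein-coding genes wholly inside. Right, protein-coding genes per Mb in domains and in the windows of equal length beside them, where the bar for domains with a corner loop (4.38) stands lowest of the 4.

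The 8 domains with a corner loop and 5 or more genes were mostly gene clusters. In 7 of them at least 3 genes shared a symbol stem, taken as the symbol up to its first digit or without its last number. Among them were the clusters of Serpina protease inhibitors on chromosome 12, matrix metalloproteinases (Mmp3, Mmp8, Mmp13 and 5 others) on chromosome 9, Clec4 lectin receptors on chromosome 6, Fabp fatty acid-binding proteins on chromosome 3, Plscr scramblases on chromosome 9 and Calhm channels on chromosome 10. Among the 44 domains of that size without a corner loop, 10 had such a cluster (22.7%, 12.8 to 37.0%), as in those of Ms4a, Armcx and Cpa genes. This split was chosen after the gene names had been seen and has no test.

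The 5 domains with the most genes had no corner loop. The first (chr19:8710001-9130000, 420 kb) held 28, among them Nxf1, an mRNA export factor gene, Polr2g, which encodes a subunit of RNA polymerase II, Taf6l, Mta2 and Eef1g, and cut Slc3a2 and Asrgl1. The second (chr7:126800001-127115000, 315 kb) held 19, among them Maz, Mvp, Ino80e, Kif22 and Taok2, and cut Aldoa. The third (chr14:50775001-51090000, 315 kb) held 14, with Pnp and Pnp2 for purine salvage, 4 Rnase genes, Apex1 for DNA repair and Parp2. The other 2, each with 13, held Ash2l and Star on chromosome 8 and Tlr9, Alas1 and Dusp7 on chromosome 9, where the microRNA gene Mirlet7g lies too.

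The 5 longest domains held 1 to 3 complete protein-coding genes each. Protein-coding genes covered 24.0 to 65.3% of their length, against a median of 56.2% over all domains. The longest (chr4:94985001-95935000, 950 kb, no corner loop) held Jun, which encodes a subunit of AP-1, and Fggy, and covered 7 noncoding entries. The domain of Foxc1 and Gmds (chr13:31775001-32690000, 915 kb) had a corner loop and 10 loops inside. That of Zfp36l1, an mRNA decay factor gene (chr12:79325001-80140000, 815 kb), had no corner loop in replicate 2 but had one in replicate 1, and cut Rad51b. Prdm1, which encodes a repressor needed for plasma cells, was the only complete protein-coding gene in 775 kb (chr10:44270001-45045000). Its domain had a corner loop and cut Atg5, of which 98.3% lay inside. Bcl2l11, the gene of the death-promoting protein Bim, shared 770 kb (chr2:127835001-128605000, no corner loop) with Acoxl, Spdye4c and 11 noncoding entries, Morrbid among them.

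The 5 shortest domains were of 60 or 65 kb. The domain at Scin, which encodes an actin-severing protein (chr12:40085001-40145000, 60 kb), took in 66.1% of the gene, with its start inside, and had a corner loop in both replicates. That of Mtrf1, Kbtbd7 and Kbtbd6 (chr14:79395001-79460000, 65 kb) also had one in both. The domains of Pcbp2 and Map3k12 (chr15:102460001-102520000) and at Etnk1 (chr6:143110001-143170000), which it cut, had one in replicate 2 only. The domain that cut Alox12, a lipoxygenase gene (chr11:70245001-70305000), had one in neither.

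Of the short domains, 26 of 30 cut a gene (86.7%, 70.3 to 94.7%), and 20 of 30 held no complete one. Over all 339 domains, 76 (22.4%) had neither boundary in a gene and 66 (19.5%) held no complete one. Cd34, the surface marker of progenitors, lay across the end of a domain of 75 kb (chr1:194880001-194955000) with 72.0% of the gene and its start inside, 16.2 kb from the boundary. A single corner loop ended 2.5 kb from each of its corners. In the domain upstream of Tnfaip3 (chr10:19015001-19090000) 2 corner loops left from the boundary at the gene's start, of 50 kb and 80 kb, and 2.83% of the gene lay inside. The loop of 50 kb stopped 25 kb short of the domain end, exactly the limit of the rule. Similar short domains took in most of Rab8b (91.6%), Adam10 (75.1%), Glg1 (70.1%) and Luzp1 (67.7%), each with its start inside. None of these domains, nor those of Cd34 and Tnfaip3, had a corner loop in replicate 1.

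Etv6, which encodes the ETS-family repressor that the study concerns, lay wholly inside a domain of 445 kb (chr6:133950001-134395000) together with the predicted gene Gm46977. A corner loop of 430 kb with anchors of 5 kb joined its ends, 12.5 kb inside the start and 2.5 kb inside the end, and replicate 1 had a corner loop too. No protein-coding gene was cut, and Bcl2l14 began just beyond.

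Of the 339 domains, 66 (19.5%, 15.6 to 24.0%) held no complete protein-coding gene. They were 40 of 158 domains with a corner loop (25.3%, 19.2 to 32.6%) and 26 of 181 without (14.4%, 10.0 to 20.2%). These intervals overlap. In the windows beside the domains, 72 of 315 were empty (22.9%) beside domains with a corner loop and 58 of 358 (16.2%) beside domains without. The share of empty domains was thus close to that of windows of the same length next to them, at 19.6% and 19.3% over all.

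Most empty domains were not gene deserts. Protein-coding genes covered a median of 72.0% of the length of empty domains, against 54.0% in the others. Of the 66, 23 were covered to over 90% and 12 to under 10%. Of the 66, 20 were short. Of all 339 domains, 9 lay wholly within 1 gene. In Lrba and Arhgap6 they were not empty, since they held the smaller genes Mab21l2 and Amelx. The other 7 lay in Nr6a1, Herc1, Rbm6, Specc1, Mctp1, Pde4d and Dmxl1. Pde4d, a cAMP phosphodiesterase gene, held a domain of 320 kb with a corner loop and the microRNA gene Mir582.

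No protein-coding gene overlapped 5 domains (1.47%). The Mir221 and Mir222 domain was 1 of them. The longest (chr10:96210001-96615000, 405 kb) held 7 noncoding entries and 3 loops. No RefSeq gene of any kind lay complete in 10 domains, 9 of them short. The longest of these was a domain of 310 kb on the X chromosome (chrX:159610001-159920000), of which 94.6% lay in Sh3kbp1, an adaptor gene, and which was nested in that of Bclaf3. The next in length were in Herc1 (105 kb), Dmxl1 (100 kb), Rbm6 (85 kb) and Glg1 (85 kb).

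Other microRNA genes known from blood cells or inflammation also lay in domains. A domain with a corner loop in both replicates (chr13:62920001-63330000, 410 kb) held Mir23b, Mir27b and Mir24-1 with the single complete protein-coding gene Aopep. Mir155, known for its part in inflammation, lay with Gabpa, an ETS-family gene, and 3 other protein-coding genes in a domain of 365 kb on chromosome 16 without a corner loop. A domain of 355 kb on the X chromosome held Mir322, Mir503 and Mir450b with 3 protein-coding genes and cut Hprt. These names were chosen after their values were seen. Of the 60 domains with a microRNA gene, 11 held no complete protein-coding gene, beside 66 of all 339 domains (19.5%).

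Domain boundaries cut 332 protein-coding genes (1.54% of 21521). Of 678 boundaries, 348 lay within a gene (51.3%, 47.6 to 55.1%). The share was 160 of 316 (50.6%) in domains with a corner loop and 188 of 362 (51.9%) in domains without. Points at steps of 10 kb out to 200 kb on either side lay within a gene in 46.0 to 57.4% of cases. The share at all boundaries fell within that range. The classes differed further out. At points 40 kb outside, 60.8% lay within a gene for domains with a corner loop and 48.9% for domains without, a difference that was not tested. With a boundary at each end, 85 domains cut genes at both and 76 at neither.

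Genes that were cut were long, and a point placed anywhere meets long genes more often. Their median length was 77.2 kb, against 22.4 kb for genes inside and 16.9 kb for genes apart from any domain. The longest was Cntnap2, a neuronal adhesion gene of 2241 kb with 0.285% of its length inside a domain, followed by Pde4d (1302 kb), Prkg1 (1201 kb), Galntl6 (1140 kb) and Hdac9 (870 kb). Of the 5, 3 were cut by a domain with a corner loop.

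Where the start of a cut gene was known, in 289 of 352 cuts, it lay inside the domain in 121 (41.9%, 36.3 to 47.6%) and outside in 142 (49.1%, 43.4 to 54.9%), and genes with several starts had some on either side in 26. A start lay within 25 kb of the boundary in 157 (54.3%). Bach2, a repressor gene of lymphoid cells, had 96.8% of its length and its start inside a domain with a corner loop in both replicates, and Mcm2, a replicative helicase gene, had 9.98% of its length inside and its start outside.

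Over all domains, gene starts were more frequent in the 20 kb outside the boundaries than in any other bin out to 200 kb on either side. The start table holds no gene on chromosome 18, which leaves 332 domains with 664 boundaries. In the 20 kb outside there were 1.62 genes starting per 100 kb, and in the 20 kb inside 1.14. From 40 to 60 kb inside there were 0.708. The long domains had 1.58 outside and 1.05 inside. The 58 boundaries of short domains did not show this step, with 1.98 outside and 2.07 inside, from 23 and 24 genes. In domains with a corner loop the values were 1.53 outside and 0.871 inside, and in domains without they were 1.69 and 1.37. The step at the boundary was steeper with a corner loop, a difference that was not tested.

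A start lay within 5 kb of 94 of 664 boundaries (14.2%, 11.7 to 17.0%). The genes were 112, or 0.648% of 17274 in the table. Points at 50 to 200 kb from the boundary had a start within 5 kb in 6.02 to 11.1% of cases, with a median of 8.06%. Points 20 kb outside had one in 14.3% and points 10 kb inside in 8.58%. With a corner loop the share at the boundary was 36 of 310 (11.6%, 8.51 to 15.7%) and without one 58 of 354 (16.4%, 12.9 to 20.6%), intervals that overlap.

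Starts did not face one way. At 38 boundaries the starts read only into the domain, at 39 only away from it, and at 17 both ways. Among the 17 were divergent pairs such as Apip and Pdhx at a domain end on chromosome 2, Gla and Hnrnph2 at a domain start on the X chromosome and Slc35a5 and Atg3 at the end of the Cd200r domain.

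**Figure D4:**
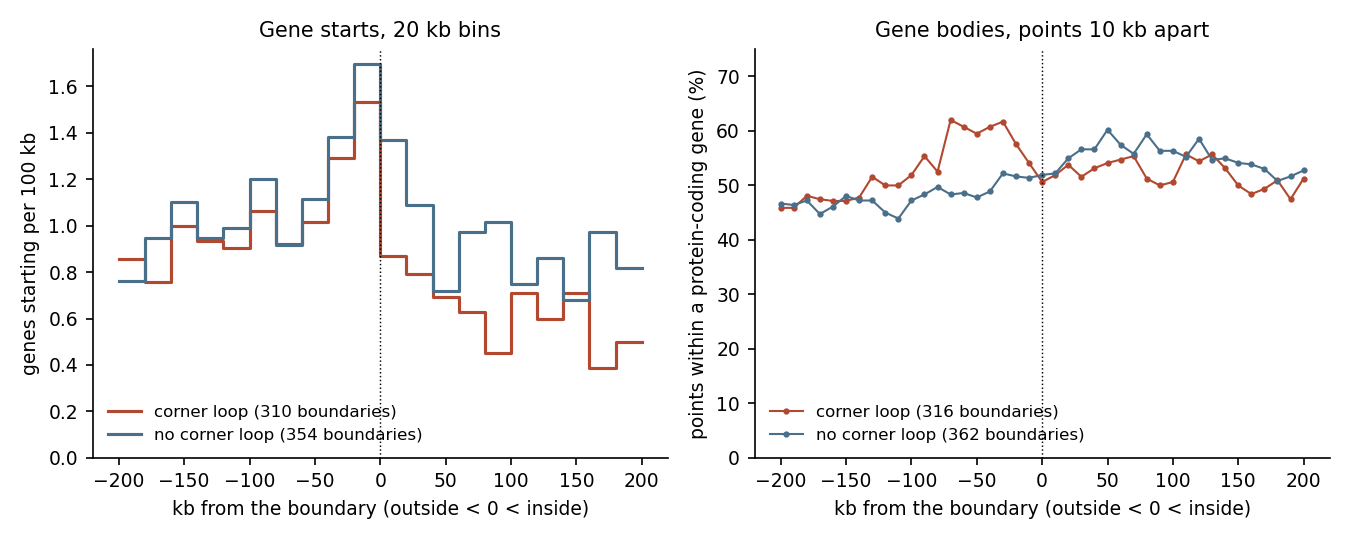
Left, genes starting per 100 kb by distance from the boundary in kb (negative outside, positive inside, bins of 20 kb), for 310 boundaries of domains with a corner loop and 354 of domains without. Right, percent of points within a protein-coding gene at steps of 10 kb, for 316 and 362 boundaries. The line for domains with a corner loop stands at 50.6% at the boundary, 60.8% at 40 kb outside, 45.9% at 200 kb outside and 53.2% at 40 kb inside.

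Most loops that touched a domain stayed within it. Of the medium-list loops of replicate 2, 691 had both anchors in 1 domain and 158 had 1 anchor in a domain and the other outside, so that 81.4% (78.6 to 83.9%) of the loops that touch a domain stayed inside. In replicate 1 the counts were 172 and 50, or 77.5% (71.5 to 82.5%). Counted window by window, 79.9% stayed inside in domains and 43.8% in the flanks. An anchor beside a corner can fall on either side of it, and the same contact data gave both domains and loops in replicate 2. No loop had both anchors inside in 48 domains. The domain with most loops inside, 12, was that of Rgs1, Rgs2 and Rgs13 on chromosome 1, regulators of G-protein signalling, named after its value was seen.

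The genes of 12 lists, drawn from pathways and cell types of the study, were looked up in the domains. Of 381 distinct genes, 33 lay wholly inside a domain (8.66%) and 38 overlapped one (9.97%), against 3.98% and 5.51% of all protein-coding genes. The lists were drawn up with earlier results of these data known, and no list was tested. The lineage lists and that of other tissues had shares close to or below that of all genes. The 3 highest shares wholly inside were those of Hox, TNF and NF-kB, and stem and progenitor genes. Counted by overlap, the cell cycle and housekeeping list (15.8%) stood above the stem and progenitor list (15.0%).

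Of 40 stem and progenitor genes 5 lay inside (12.5%, 5.46 to 26.1%). They were Etv6, Gata2, Myb, Ikzf1 and Ikzf2, transcription factors that act in stem, progenitor and lymphoid cells. Myb was the only complete protein-coding gene in a domain of 330 kb that cut its neighbours Ahi1 and Hbs1l. Ikzf2 was the only such gene in 390 kb. The domains of Etv6, Ikzf1 and Ikzf2 had a corner loop and those of Gata2 and Myb did not. Cd34 was cut. Of 26 ETS-family genes, Etv6 and Gabpa lay inside.

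Of 46 genes of TNF and NF-kB signalling 7 lay inside (15.2%, 7.57 to 28.2%), and Tnfaip3 was cut. Nfkb1, which encodes a subunit of NF-kB, lay in 340 kb with Manba, Ube2d3 and Cisd2, and had a corner loop. So did the receptor gene Tnfrsf1b, in 420 kb with Dhrs3. The inhibitor gene Nfkbia lay in 525 kb with 4 others, and the adaptor gene Traf1 in 330 kb with 7 others. The inhibitor gene Nfkbiz was the only complete protein-coding gene in 380 kb. Jun lay in the longest domain and Ptgs2, which encodes a prostaglandin synthase, beside Pla2g4a, a phospholipase gene of the same pathway, in 400 kb. The domains of Nfkbia, Nfkbiz, Traf1, Jun and Ptgs2 had no corner loop.

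Of 48 interferon genes 3 lay inside (6.25%). They were the receptor genes Ifnar1, Ifnar2 and Ifngr2, which shared 325 kb on chromosome 16 with Il10rb, so they count as 1 place. Of 32 cytokine receptor genes 3 lay inside (9.38%), Il10rb, Csf2ra and Lifr, and the domain of Lifr had a corner loop. Of 39 Hox genes 7 lay inside (17.9%), all in 1 domain, so they too count as 1 place.

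The lineage lists were close to all genes. Inside were Mmp8 of 26 myeloid genes, Selp of 25 erythroid and megakaryocytic genes and Ms4a1 of 29 lymphoid genes. None of 30 genes of other tissues lay inside, which allows a share of up to 11.4% by the Wilson interval. Of 16 genes of loop extrusion Stag1 lay inside, in 710 kb. Of 38 cell cycle and housekeeping genes 3 lay inside (7.89%), Ccne1, Cdkn1b and Rb1, and 3 were cut, Hprt, Ccnd1 and Mcm2. Ccnd1 was 99.3% inside.

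**Figure D5:**
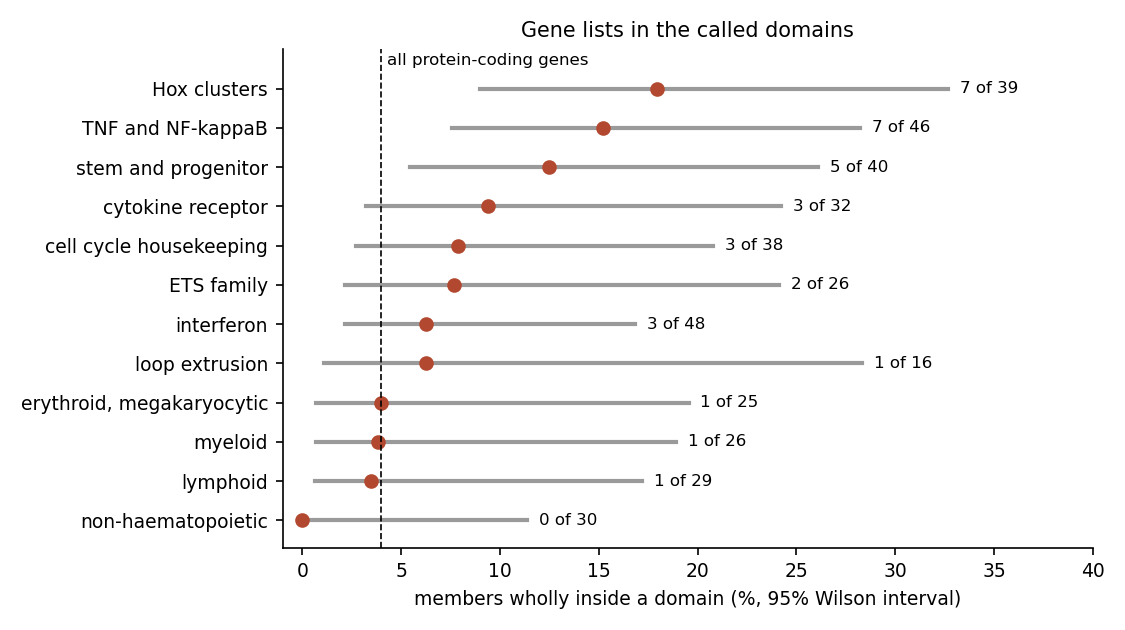
Percent of the genes of each list that lie wholly inside a domain, with 95% Wilson intervals, and the share of all protein-coding genes as a dashed line (3.98%). The Hox, TNF and NF-kB, and stem and progenitor lists have the highest shares, and the Hox members share 1 domain. The lists were drawn up with earlier results of these data known, and none was tested.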

How the data were processed

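Fixed cells were digested, ligated and sequenced with the Arima Hi-C kit, per the labels' protocols. HiC-Pro 2.11.1 and mm10 stand in the submitters' processing notes. What called the domains is not given in the sources used here, nor what called the loops. The authors deposited, per sample, 1 domain list at 5000 bp bins and 2 loop lists. Only their coordinates were used, counted from 1. Genes, starts and sequences came from RefSeq tables of GRCm38.p6, with 21521 protein-coding genes after 345 genes of scaffolds were left out, and start sites for 17274.

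Shares carry 95% Wilson intervals (scipy 1.17.1), and nothing was tested, since there is 1 group and 1 library holds nearly all domains. Numpy 2.4.6, pandas 2.3.3 and Python 3.11.15 were used. The code of the corner rule was checked on simulated loops placed within or beyond its limit. That check does not bear on how well the rule suits real loops. Domains named were the 3 of both replicates, that of Etv6, the 5 longest, shortest, richest in genes and longest with no RefSeq gene, and genes named were those in them, the 5 longest cut and up to 8 members of each list. Other names were chosen after their values were seen. The members and lists were chosen with earlier results of these data known. Of 397 list entries 395 matched a gene. Alternatives were other corner distances, the high loop list, anchor edges, all RefSeq genes, gene midpoints, moved boundaries, autosomes alone and replicate 1. Some genes are not reported here.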

Additional observations from a re-analysis of the deposited data

How the results depend on the processing

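The ratio of gene density with to without a corner loop was 0.517 and lay between 0.498 and 0.637 with other corner distances, the high list, autosomes alone, long domains alone, overlapping domains left out and gene midpoints (0.596), and became 0.799 with all RefSeq genes. The last 4 of these were chosen after seeing the data. Gene density in domains was 0.749 of that in flanks, and 0.751 and 0.913 without flanks that overlap another domain and with all RefSeq genes. The share of domains with a corner loop was 46.6%, and became 20.9% with anchors within 10 kb, 63.1% within 50 kb, 34.8% on the high list and 55.2% by anchor edge. The difference in median length, -25 kb, became -45 kb at 10 kb, -5 kb at 50 kb and -12.5 kb in long domains alone. Corner loops in replicate 1 were found for 15.8% at 10 kb and 46.8% at 50 kb in domains with a corner loop in replicate 2, and for 0% and 8.29% in domains without. Counting all RefSeq genes gave 2415 genes inside and 2.95% of domains empty. Counting any overlap left 1.47% empty, and long domains alone 14.9%. Loops kept within domains were 96.7% with a margin of 25 kb at each boundary, a margin chosen after seeing the data. Without replicate 2, from the 3 domains of replicate 1, 100% had a corner loop, 33.3% were empty, 9 genes lay inside and 4 were cut. No paired analysis was possible because the samples form 1 group. The lists give no counts, so depth limits every absence of a loop or domain to an unknown degree.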
